A study of Mus musculus with 12 samples.

Results

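The genes described here are those of hormone-sensing luminal cells of the mammary gland: the oestrogen and progesterone receptors Esr1 and Pgr, the factors Foxa1 and Cited1 that work with the oestrogen receptor, the secreted signals Wnt4 and Tnfsf11, and the hormone target genes Greb1 and Stc2. Members were chosen by symbol, as every probe set on the array whose annotation gives exactly 1 symbol out of a list of 10 genes. This gave 19 of 45101 probe sets, for 8 of the 10 genes, out of 18193 genes named in this way. The prolactin receptor Prlr and the growth factor Areg had no probe set named by the annotation used here and are not analysed here. Of the 19 probe sets, 13 passed a filter on low values (a mean log2 intensity in the upper 60% of probe sets, about 101 units or more), with 7 genes between them, and 6 did not, among them all 4 of Greb1.

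In the mammary epithelium, oestrogen and progesterone act on a subset of luminal cells that carry their receptors. These cells respond to oestrogen by making progesterone receptor, among other products, and pass the signal to neighbouring cells through secreted factors such as amphiregulin, RANKL and WNT4. Ductal growth at puberty depends on oestrogen receptor alpha, and side branching on the progesterone receptor.

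The cells were primary mammary epithelial cells from female FVB/N mice, an inbred strain, isolated at 6 weeks of age. The p190B arrays (n = 6) came from mice with the transgenes MMTV-rtTA and TetO-p190B-IRES-luciferase, and the control arrays (n = 6) from mice with MMTV-rtTA alone. Animals of both genotypes therefore carried rtTA, a doxycycline-dependent activator under a mammary tumour virus promoter, and both ate doxycycline chow (2 g/kg) for 7 days from 5 weeks of age. p190B is the product of the gene Arhgap5. The labels call the arrays of a group biological replicates and do not say whether cells of several mice were pooled, nor do they give the stage of the oestrous cycle.

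Each value is the linear intensity of a probe set on an array, and precision is limited by how many arrays there are. An intensity depends on the probes as well as on the RNA, so no gene's level is set against another's. Differences and correlations were computed on log2(intensity + 16). The transgene's own gene, Arhgap5, was read by 4 tested probe sets with log2 differences from −0.32 to 0.41, and 0 of them passed (limma adjusted p from 0.258 to 0.925), so the arrays give no firm check of the genotype labels. Luminal markers were bright on every array, with Krt8, a luminal keratin, between 38760 and 47661 units. Markers of T, NK and B lymphocytes were present in very unequal amounts, and the mean log2 value of the 11 measured markers, of 13 listed, ran from 6.77 to 10.02 in control and from 6.28 to 10.16 in p190B. The p190B arrays had log2 3′ over 5′ ratios of Actb from 0.31 to 0.59 against 0.25 to 0.35 in control, and of Gapdh from −0.48 to −0.32 against −0.52 to −0.47, a sign of RNA or labelling quality. The Actb ratio was highest on p190B replicates 3 and 1, which also gave 4266 and 725 units for the 18S ribosomal RNA control probe set, with at most 440 elsewhere.

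Pgr and Stc2 varied widely over the 12 arrays, and their high arrays were the same in both genotypes. Pgr encodes the progesterone receptor, a nuclear receptor that is itself induced by oestrogen. Its brightest probe set, 1439527_at, read 2323, 3076, 2527, 7764, 10001 and 7212 units on control replicates 1 to 6. On p190B replicates 1 to 6 it read 2303, 3339, 3005, 7060, 2797 and 10005 units. The arrays fell into a lower set of 7, none above 3339 units, and a higher set of 5, none below 7060 units, with no array between. The higher set held 3 control arrays and 2 p190B arrays, so it did not follow genotype. These were control replicates 4, 5 and 6 and p190B replicates 4 and 6, and the labels do not say whether a replicate number marks a litter, a day or a batch.

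The other tested Pgr probe set, 1421444_at, is dim and ranked the arrays alike. It ran from 78 to 163 units on the lower 7 arrays and from 235 to 457 units on the same 5 higher arrays. Over the 12 arrays the log2 values of the 2 Pgr probe sets had a Pearson r of 0.95. The third Pgr probe set, 1455772_at, lay under the filter, between 3.1 and 234 units, and had an r of 0.17 with the brightest. Over all tested probe sets, the SD of 1439527_at over the 12 arrays, 0.85 on the log2 scale, stood at the 98.8th percentile, where the median SD was 0.22.

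Stc2 encodes stanniocalcin 2, a secreted glycoprotein that is induced by oestrogen in human breast cancer cells. Probe set 1449484_at read 1123, 1596, 1467, 4133, 5161 and 4416 units on control replicates 1 to 6, and 1567, 1501, 1809, 4846, 1478 and 6982 units on p190B replicates 1 to 6. The arrays again fell into a lower set of 7, at most 1809 units, and a higher set of 5, at least 4133 units. All 5 were the arrays that were high for Pgr. The 2 other Stc2 probe sets also had these 5 arrays as their 5 highest, with no such gap. The brightest, 1419503_at, ran from 1174 to 8730 units, a 7.44-fold span, and p190B replicate 2, at 4025 units, lay just under the lowest of the 5. The dimmest, 1445186_at, ran from 542 to 1551 units. Pearson r between Stc2 probe sets was 0.88, 0.66 and 0.91 over 12 arrays.

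**Figure D1:**
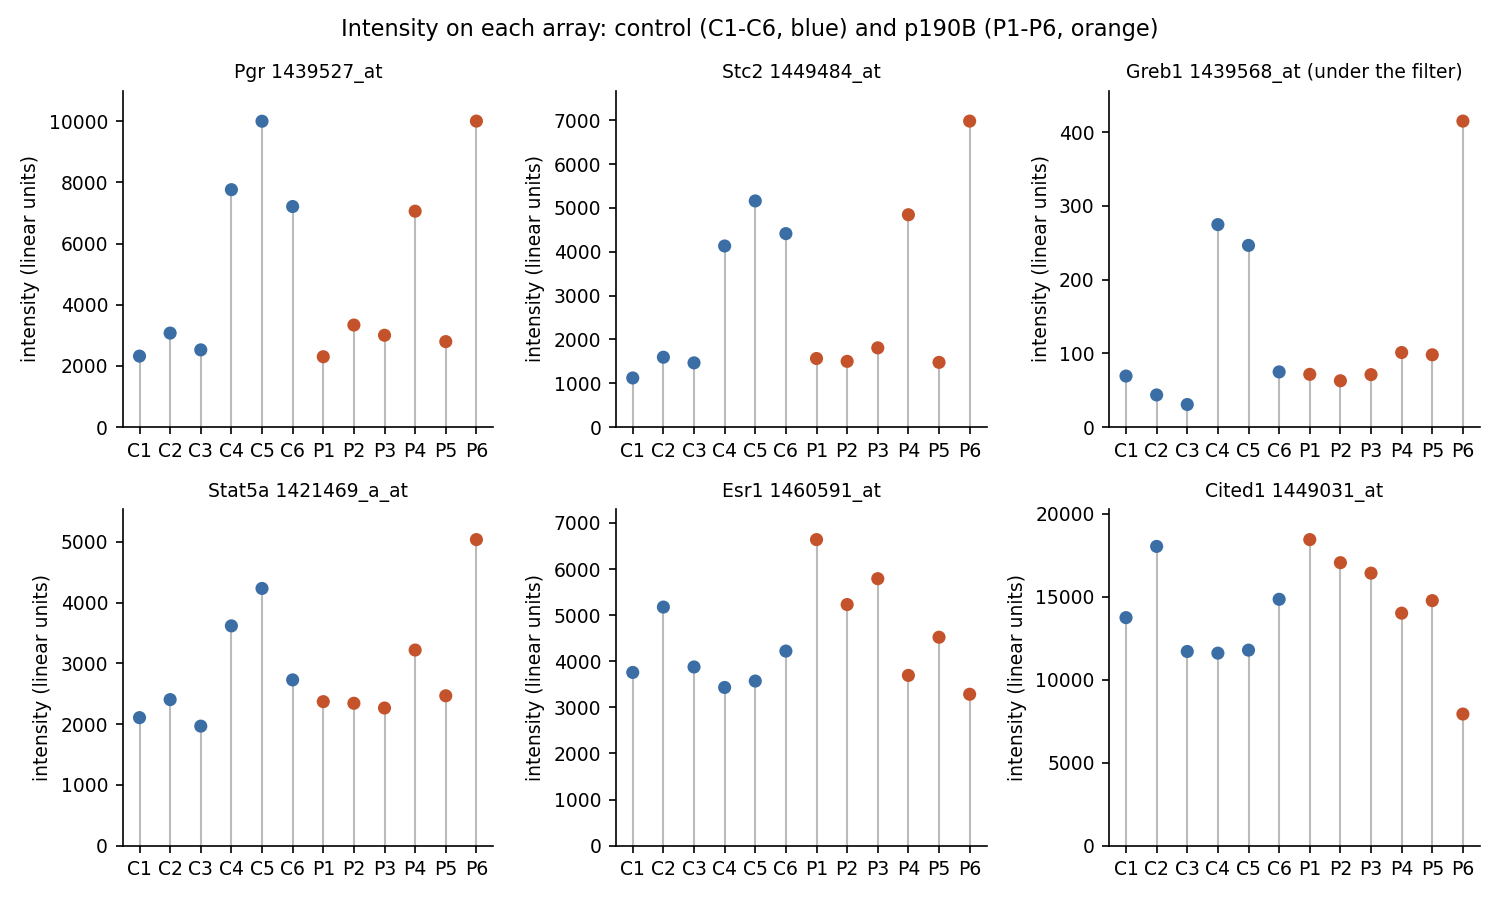
Linear intensity on each of the 12 arrays (C1 to C6, control; P1 to P6, p190B) for Pgr, Stc2, Greb1, Stat5a, Esr1 and Cited1, each on its own scale starting at 0. C4, C5, C6, P4 and P6 are the 5 highest arrays for Pgr, Stc2 and Stat5a. The 4 lowest arrays for the Esr1 probe set shown, 1460591_at, are all among them.

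Pgr and Stc2 were also each other's near neighbours on the whole array. Out of all genes with a tested probe set of 1 symbol, Stc2 (1449484_at) had the pattern most like that of Pgr, with Pearson r = 0.98 and a Spearman rank correlation of 0.86 over the 12 arrays. Within genotypes r was 0.99 in control and 0.97 in p190B (n = 6 each). The same search for the brightest Stc2 probe set placed Pgr (1421444_at) next, at r = 0.93, after Gng12, a G protein gamma subunit (r = 0.94), and Tmed3, a cargo receptor of the secretory pathway (r = 0.94). With 12 arrays high values arise readily: over 23307 tested probe sets with 1 symbol the highest r with another gene had a median of 0.92 and a 95th percentile of 0.97. Both probe sets behind r = 0.98 have the same 5 arrays above a gap, which weigh on r. No r within the lower 7 arrays was computed for that pair. Within the 7 lower arrays Pgr and the brightest Stc2 probe set had r = 0.66 and a Spearman rank correlation of 0.68, which did not pass (exact permutation p = 0.102 and 0.110, adjusted over 28 relations 0.372 and 0.438).

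Next after Stc2 in likeness to Pgr stood Kif5c, a kinesin heavy chain, with r = 0.96, and Rbm20, an RNA-binding splicing factor, with r = 0.96. Rbm20 ran from 309 to 473 units on the lower 7 arrays and read 1194, 2600, 1536, 1387 and 1866 units on control replicates 4, 5 and 6 and p190B replicates 4 and 6. Of 27022 tested probe sets, 14 outside Pgr had r of at least 0.9 with its brightest probe set.

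Greb1, a chromatin-bound cofactor of the oestrogen receptor and one of its best-known target genes, was near the lower limit of measurement on most arrays. All 4 of its probe sets lay under the filter, so no adjusted p is given. The brightest, 1439568_at, read 275, 246 and 415 units on control replicates 4 and 5 and p190B replicate 6, and between 31 and 101 units on the other 9 arrays. These 3 arrays are also high for Pgr and Stc2, but control replicate 6 and p190B replicate 4, at 75 and 101 units, did not share the high Greb1 reading. Probe set 1419593_at was highest on p190B replicate 6 at 235 units, followed by control replicate 4 at 134 and control replicate 5 at 122. Probe set 1445324_s_at ran from 12.2 to 114 units, again highest on p190B replicate 6. The dimmest, 1445323_at, between 1.7 and 51.5 units, did not follow the others, with r = −0.26 against the brightest.

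Among all genes, the pattern most like Greb1 was that of Stat5a, which encodes the transcription factor that the prolactin receptor activates through JAK2. Its r with the brightest Greb1 probe set was 0.94 and its Spearman rank correlation 0.90 over the 12 arrays, with r of 0.93 in control and 0.96 in p190B. That Greb1 probe set has 3 high arrays apart from the other 9, which weigh on r, and no r within the 9 was computed. Over tested probe sets with 1 symbol the highest r with another gene had a median of 0.92. Stat5a read 2106, 2403, 1967, 3616, 4232 and 2728 units on control replicates 1 to 6, and 2369, 2343, 2265, 3218, 2466 and 5035 units on p190B replicates 1 to 6. Its 5 highest arrays were the 5 that were high for Pgr. Aqp5, a water channel of secretory epithelia, was also among the 3 genes most like Greb1 (r = 0.90) and had the same 5 highest arrays, from 2185 to 3702 units against 1335 to 1747 on the others. Between them in rank stood a probe set of Smarcb1, a chromatin remodelling subunit (r = 0.92), and only 3 of its 5 highest arrays were high for Pgr.

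The arrays above and below the gap in Pgr overlapped in every marker of makeup and quality that was set beside them. Lymphocyte markers averaged 6.77 to 10.16 (log2) on the higher 5 arrays and 6.28 to 9.93 on the lower 7. Luminal epithelial markers averaged 13.21 to 13.80 and 13.47 to 13.78, and basal and myoepithelial markers 11.77 to 12.03 and 11.83 to 12.20. The Actb 3′ over 5′ ratio ran from 0.25 to 0.32 and from 0.28 to 0.59. Within each genotype, however, this ratio was lower on every array above the gap than on those below. In control it read 0.280, 0.252 and 0.276 on replicates 4, 5 and 6, and 0.283, 0.349 and 0.286 on replicates 1, 2 and 3. In p190B it read 0.307 and 0.320 on replicates 4 and 6, and 0.483, 0.343, 0.587 and 0.351 on replicates 1, 2, 3 and 5. Their part in the Pgr and Stc2 pattern was not tested. In RNA from a mixed preparation, fewer cells of a type and less RNA per cell cannot be told apart.

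The sequences ahead of the start sites of Pgr, Stc2 and Greb1 are shown because these genes had high arrays in common. Each is the 250 bases before a RefSeq start site in GRCm38.p6, 5′ to 3′ on the gene's strand, and Greb1 has 2 start sites in the table. Capitals mark GGTCA, the half-site of an oestrogen response element, or GGGCGG, a GC box, on either strand, so that TGACC and CCGCCC are matches as well.
Pgr, chr9:8899583-8899832, plus strand: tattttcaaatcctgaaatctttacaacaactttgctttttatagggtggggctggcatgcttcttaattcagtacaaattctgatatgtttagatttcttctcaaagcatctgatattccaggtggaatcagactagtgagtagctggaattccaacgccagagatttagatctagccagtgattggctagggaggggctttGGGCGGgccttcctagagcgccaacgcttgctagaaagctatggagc
Stc2, chr11:31370062-31370311, minus strand: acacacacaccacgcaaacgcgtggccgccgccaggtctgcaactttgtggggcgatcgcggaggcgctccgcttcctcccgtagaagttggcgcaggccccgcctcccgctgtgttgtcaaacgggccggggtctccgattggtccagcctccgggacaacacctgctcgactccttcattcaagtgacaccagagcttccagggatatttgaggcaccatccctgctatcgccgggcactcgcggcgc
Greb1 first window, chr12:16800887-16801136, minus strand: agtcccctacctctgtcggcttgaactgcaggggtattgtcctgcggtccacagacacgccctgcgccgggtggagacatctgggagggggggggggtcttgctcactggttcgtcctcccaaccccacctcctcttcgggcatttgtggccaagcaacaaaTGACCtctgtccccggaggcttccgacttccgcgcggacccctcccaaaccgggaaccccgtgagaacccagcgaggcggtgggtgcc
Greb1 second window, chr12:16757240-16757489, minus strand: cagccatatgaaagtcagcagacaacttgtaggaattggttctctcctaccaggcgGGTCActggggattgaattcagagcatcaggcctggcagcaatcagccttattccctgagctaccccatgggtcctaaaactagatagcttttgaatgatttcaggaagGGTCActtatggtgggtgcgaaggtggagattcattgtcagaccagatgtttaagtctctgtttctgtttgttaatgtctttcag

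The Pgr window held 1 GC box, which begins 47 bases before the start, and no half-site. The Stc2 window held neither. Greb1 had 1 half-site in its first window, at 88 bases before the start, and 2 in its second, at 194 and 85 bases before it. The full element GGTCANNNTGACC was in 0 of the 16 windows of the 10 listed genes and in 0.0639% of all 32851 windows of this length. A half-site was in 5 of the 16 (31.2%) and in 35.2% of all windows, and a GC box in 5 of the 16 (31.2%) and in 32.7% of all. A full element contains a half-site on each strand. These matches describe the letters in these windows and nothing beyond.

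Esr1, which encodes oestrogen receptor alpha, was not high by its brightest probe set on the arrays that were high for Pgr. Its other probe sets ranked these arrays differently. Its brightest probe set, 1460591_at, read 3757, 5175, 3875, 3431, 3570 and 4220 units on control replicates 1 to 6, and 6638, 5229, 5790, 3692, 4520 and 3284 units on p190B replicates 1 to 6. The 4 lowest arrays, p190B replicate 6, control replicates 4 and 5 and p190B replicate 4, were all high for Pgr, while control replicate 6 ranked 7th of 12. By the second probe set, 1435663_at, control replicate 6 was the highest array, at 1778 units. Control replicates 4 and 5 and p190B replicates 4 and 6 ranked 2, 6, 1 and 4 from the lowest there. By the dim 1421244_at, control replicates 4, 5 and 6 ranked 1, 6 and 5, and p190B replicates 4 and 6 ranked 3 and 10. Because the Pgr arrays form separate sets, no pooled correlation is given. Within the 7 lower arrays Esr1 and Pgr had r = 0.24 and a Spearman rank correlation of 0.14 (exact permutation p = 0.587 and 0.783, adjusted p = 0.760 and 0.913).

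Cited1, a transcriptional co-activator that binds the oestrogen receptor, varied with Esr1. Its only probe set, 1449031_at, ran from 11598 units through a median of 12758 to 18028 in control and from 7929 through 15590 to 18438 in p190B. Over the 12 arrays Esr1 and Cited1 had r = 0.85 and a Spearman rank correlation of 0.92 (two-sided permutation p = 0.00047 and 6e-05, Benjamini-Hochberg adjusted over 28 relations 0.0132 and 0.00168). It held within genotypes, with r = 0.93 in control and 0.86 in p190B, and r was 0.86 without p190B replicates 1 and 3, the 2 arrays farthest from the median of Esr1. It did not pass when Esr1 was read by its second probe set, 1435663_at, with r = 0.59 and a p of 0.161 adjusted over 10 pairs (permutation test). That probe set ran from 944 to 1778 units and had r = 0.66 with the brightest, while the dim 1421244_at, between 94.8 and 211 units, had r = 0.29 with it.

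Cited1 also moved with the makeup of the preparations. Its rank correlation was 0.80 with the mean of 11 luminal epithelial markers, 0.80 with 12 luminal progenitor and alveolar markers and −0.83 with 8 endothelial markers (permutation test, adjusted over 64 relations p = 0.0366, 0.0366 and 0.0258). Pearson r was 0.73, 0.72 and −0.70, and did not pass (adjusted p = 0.108, 0.108 and 0.112). Without p190B replicates 1 and 6, the 2 arrays farthest from its median, r was 0.70, 0.74 and −0.72. Within genotypes r with the luminal list was 0.85 in control and 0.83 in p190B. Esr1 had r = 0.69 and a Spearman rank correlation of 0.68 with the luminal list over all arrays (adjusted permutation p = 0.153 and 0.191), r = 0.64 without p190B replicates 1 and 3, and r = 0.86 in control and 0.88 in p190B. The part of epithelial content in the shared variation of Esr1 and Cited1 was not tested. The genes most like Esr1 were Rnf111, a ubiquitin ligase (r = 0.95), Zbtb24, a zinc finger protein (r = 0.95), and Pld2, a phospholipase (r = 0.94), and the gene most like Cited1 was Homer1, a scaffold protein (r = 0.92), followed by Atp1b1, a sodium pump subunit (r = 0.91), and Prr5l, a binding partner of mTOR complex 2 (r = 0.91).

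Foxa1, the pioneer factor that opens chromatin for the oestrogen receptor, was the steadiest member. Probe set 1418496_at ran from 6996 units through a median of 8448 to 9853 in control and from 8065 through 9846 to 10632 in p190B. Its highest array was 1.52 times its lowest, against 4.35 times for the brightest Pgr and 6.22 times for the Stc2 probe set 1449484_at, and its SD over arrays stood at the 37.8th percentile of tested probe sets. Foxa1 had r = 0.66 and a Spearman rank correlation of 0.62 with Esr1 (permutation p adjusted over 28 relations 0.188 and 0.247) and r = 0.62 and a Spearman rank correlation of 0.72 with Wnt4 (adjusted p = 0.212 and 0.1002), none of which passed. Without the 2 arrays farthest from the median of the x-axis gene, Esr1 or Foxa1, r was 0.48 and 0.59. Pak3, a p21-activated kinase, was most like it (r = 0.92), before Emsy, a nuclear BRCA2-binding protein (r = 0.90), and Ranbp10 (r = 0.90).

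Wnt4 encodes a secreted ligand through which progesterone acts on neighbouring cells. Its brightest probe set, 1450782_at, ran from 1467 through 1750 to 2055 units in control and from 1462 through 2025 to 2418 in p190B, and the dimmer 1441687_at from 914 to 1239 and from 783 to 1542. The 2 probe sets had r = 0.83 over the arrays. Wnt4 did not follow the Pgr split: p190B replicate 4, high for Pgr, was the lowest array for both Wnt4 probe sets, and p190B replicate 5, low for Pgr, was the highest. Sun1, a nuclear envelope protein, was most like it (r = 0.92), then Sec24c, a vesicle coat subunit (r = 0.90), and Scaf8, an RNA-binding protein (r = 0.87).

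Tnfsf11 encodes RANKL, which progesterone induces in luminal cells and which activated T lymphocytes also make. Its brighter probe set, 1419083_at, read 179, 78.5, 193, 562, 46.2 and 218 units on control replicates 1 to 6, and 11, 248, 49.3, 277, 316 and 161 units on p190B replicates 1 to 6, which put its SD at the 99.7th percentile. The other, 1451944_a_at, lay under the filter between 8.4 and 126 units, with r = 0.90 against the brighter one. Its 5 highest arrays were control replicates 4 and 6 and p190B replicates 2, 4 and 5, of which 3 were also high for Pgr. Control replicate 5, second highest for Pgr, was second lowest for Tnfsf11.

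Tnfsf11 followed the lymphocyte markers. Over the 12 arrays its log2 value and the mean of 11 T, NK and B lymphocyte markers had r = 0.94 and a Spearman rank correlation of 0.96 (two-sided permutation p = 1e-05, the smallest that 100000 resamples can give, and 2e-05; adjusted over 64 relations 0.00064 and 0.00128). It was r = 0.95 within each genotype, and 0.89 without control replicate 5 and p190B replicate 1, the arrays farthest from the median of Tnfsf11. Lymphocyte markers were lowest, at 6.28, on p190B replicate 1, where Tnfsf11 was also lowest. Among the defining markers, Cd3e, a T cell receptor chain, ran from 61.7 to 1065 units and Ms4a1, which encodes the B cell antigen CD20, from 64.7 to 2655. Tnfsf11 had a rank correlation of −0.85 with basal and myoepithelial markers (adjusted permutation p = 0.0258; r = −0.80, adjusted p = 0.0576, and −0.79 without the same 2 arrays). The gene most like it was H2-Ob, an MHC class II chain of B lymphocytes (r = 0.97), which ran from 96.5 to 1876 units. Probe sets annotated to Serpina1b and Serpina10 followed (r = 0.96 each), of which the former has near-identical copies and is uncertain. Of 27022 tested probe sets, 191 outside Tnfsf11 had r of at least 0.9 with it.

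**Figure D2:**
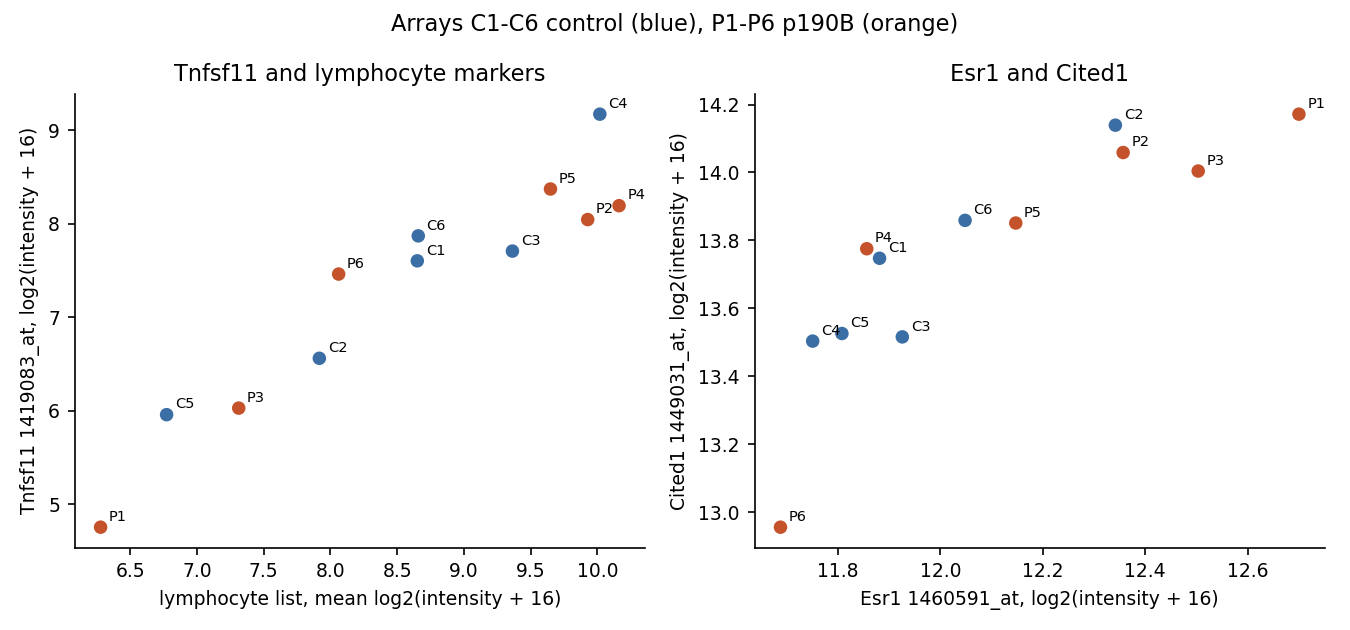
Left, log2 intensity of Tnfsf11 against the mean log2 intensity of 11 lymphocyte markers; right, log2 intensity of Cited1 against Esr1, both over 12 arrays (blue, control; orange, p190B). Both genotypes lie along the same trend, and p190B replicate 6 (P6) is lowest for both Esr1 and Cited1.

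The genotype comparison asks whether the p190B transgene changed expression of these genes in mammary epithelial cells. No member probe set passed: limma called 0 of 13 at an adjusted p of 0.05, where 0.037% of all 27022 tested probe sets were called, and 1 of 13 had an unadjusted p under 0.05, where 9.32% of all did. That one was Foxa1, and it is the smallest of the members' p values. Foxa1 averaged 8513 ± 994 units on control and 9716 ± 989 on p190B arrays (SD, n = 6 each). Its log2 difference, p190B minus control, was 0.19 (SE 0.09, 95% interval 0.01 to 0.38). Its limma adjusted p was 0.515 and its exact two-sided permutation p 0.0584, and p190B replicates 1, 2 and 3 exceeded every control. Without p190B replicates 1 and 3 the difference was 0.14 (limma adjusted p = 0.598). With the Gapdh and the Actb ratio as a covariate the difference was 0.11 each. Both ratios tended higher on p190B arrays, Gapdh almost without overlap, so fits with either separate it poorly from genotype.

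For the receptors, the brightest Esr1 probe set averaged 4004 ± 634 units on control and 4859 ± 1275 on p190B arrays (SD, n = 6 each), which differ by 0.25 on the log2 scale (SE 0.16, interval −0.09 to 0.58, limma adjusted p = 0.670). It was higher than every control array on 3 of 6 p190B arrays, and the difference was −0.14 with the Gapdh ratio as a covariate, −0.07 with the Actb ratio and 0.05 without p190B replicates 1 and 3. The 2 other Esr1 probe sets gave −0.07 and 0.05. Pgr averaged 5484 ± 3260 units in control and 4751 ± 3092 in p190B, a log2 difference of −0.19 (SE 0.43, interval −1.11 to 0.72, limma adjusted p = 0.938). That interval covers a ratio from 0.465 to 1.65. The difference was −0.45 without p190B replicate 6 and turned to 0.03 without control replicate 5, to 0.12 without p190B replicates 1 and 3, and to 0.56 and 0.41 with the Gapdh and Actb ratios. The groups overlapped, and p190B replicate 6 alone exceeded the highest control, 10005 against 10001 units.

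Among the cofactors and paracrine genes, Cited1 gave 0.09 (SE 0.18, interval −0.29 to 0.46), 0.014 without p190B replicate 1, its highest array, and 0.26 without p190B replicate 6, its lowest. Wnt4 gave 0.16 (SE 0.11, interval −0.08 to 0.40) by its brighter probe set and 0.05 by the other. Tnfsf11 gave −0.34 (SE 0.63, interval −1.69 to 1.01), −0.64 without control replicate 5, 0.14 without p190B replicate 1 and 0.002 without control replicate 4, and −0.34 with the lymphocyte markers as a covariate. With the Gapdh ratio as a covariate Tnfsf11 gave 1.36, Cited1 −0.23 and the brightest Stc2 probe set 0.73. None of these passed (limma adjusted p = 0.751, 0.855 and 0.828), and the ratio nearly separates the genotypes, which makes such estimates imprecise. The 3 Stc2 probe sets gave −0.10, −0.04 and 0.04, with intervals as wide as −1.10 to 0.90 on the log2 scale. Limma adjusted p ran from 0.706 for Wnt4 to 0.991 for Stc2 in this group.

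**Figure D3:**
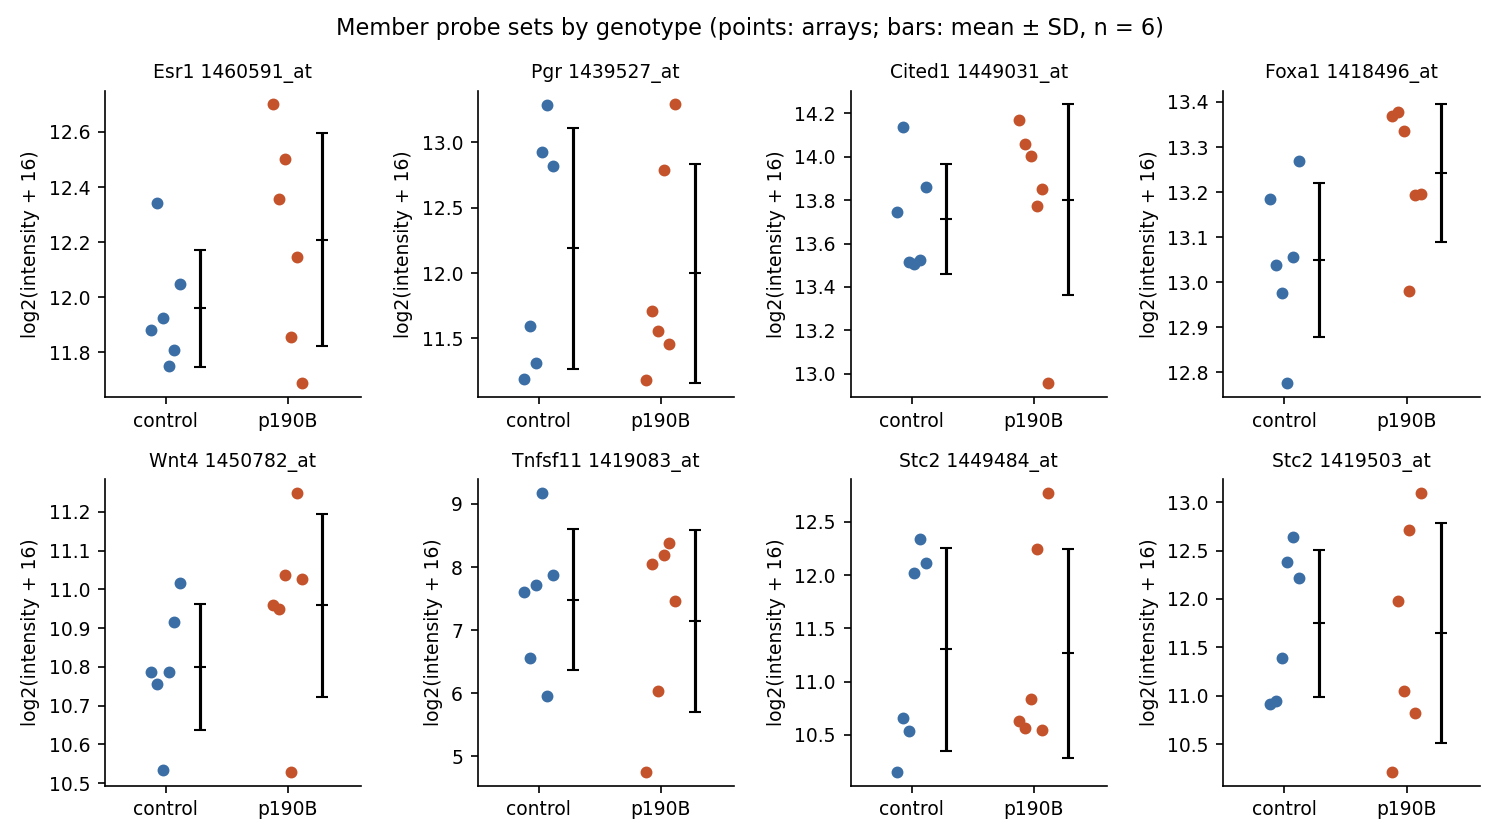
Log2(intensity + 16) of 8 member probe sets of 7 genes by genotype, with points for arrays and bars for the mean ± SD (n = 6 each); the vertical axes do not start at 0. Genotypes overlap in every panel, and in Pgr and Stc2 1449484_at each genotype splits into a higher and a lower set.

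**Figure D4:**
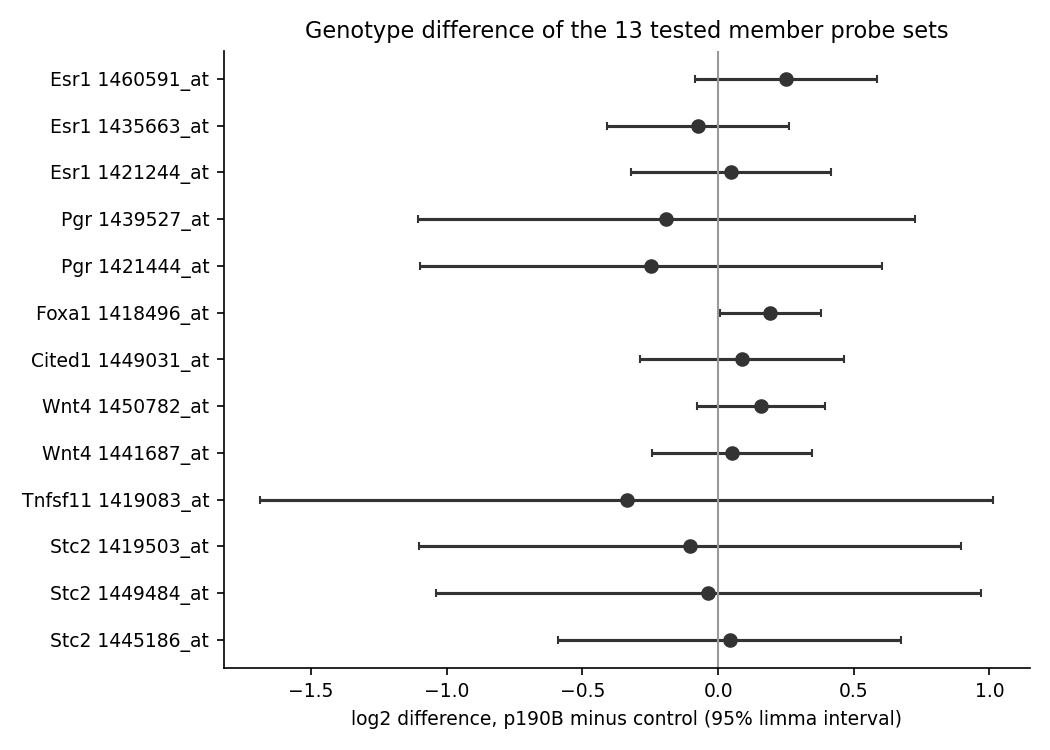
Log2 difference, p190B minus control, of the 13 tested member probe sets with 95% limma intervals. The interval of Foxa1, 0.01 to 0.38, lies above 0 before adjustment for 27022 probe sets, and those of Pgr, Tnfsf11 and 2 of the Stc2 probe sets are the widest.

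Other genes of the hormone pathways, each read by its brightest tested probe set, also had 0 members past the limma adjusted threshold in every list. Of 6 other hormone-sensing luminal markers, 4 were higher and 2 lower in p190B, with a median log2 difference of 0.06 beside 0.02 over all tested probe sets. Myb, an oestrogen-induced transcription factor, had the smallest p there, with a log2 difference of 0.31 (SE 0.14, limma adjusted p = 0.491). Gata3, the luminal zinc finger factor, gave 0.27 (SE 0.16), Tbx3, a T-box factor, 0.05 (SE 0.18), and Prom1, a surface marker of hormone-sensing cells, 0.07 (SE 0.13). The 2 lower markers were Cd24a, at −0.06 (SE 0.04), and Xbp1, at −0.04 (SE 0.05).

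Of 11 other hormone receptors, 10 were higher and 1 lower, with a median of 0.07 beside 0.02 over all tested probe sets. The share of all tested probe sets that were higher is not given, so the counts of direction in these lists have no background. The glucocorticoid receptor Nr3c1 had the smallest p, with 3769 ± 477 units on control and 4497 ± 287 on p190B arrays (SD, n = 6 each), a difference of 0.26 in log2 (SE 0.08, limma adjusted p = 0.352). The oestrogen receptor beta gene Esr2 and the thyroid hormone receptor Thrb lay under the filter. Of 14 steroid receptor coregulators, 9 were higher and 5 lower (median 0.03). Pgrmc1, a haem-binding membrane protein once named as a progesterone receptor component, had the smallest p, with a log2 difference of −0.12 (SE 0.05, limma adjusted p = 0.489).

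Of 13 other oestrogen and progesterone targets, 5 were higher and 8 lower (median −0.01). Elf5, the alveolar transcription factor downstream of progesterone and prolactin, had the smallest p there and among the 12 genes of prolactin, JAK2 and STAT5 signalling, of which 7 were higher and 5 lower (median 0.05). It averaged 11497 ± 1738 units on control and 13952 ± 1241 on p190B arrays (SD, n = 6 each), a difference of 0.29 in log2 (SE 0.09, limma adjusted p = 0.355). Stat5a gave 0.05 (SE 0.22) between genotypes. Of 14 receptors and partners of AREG, RANKL and WNT4, 4 were higher and 10 lower (median −0.04). Adam17, the protease that releases amphiregulin from the cell surface, had the smallest p, with a log2 difference of 0.14 (SE 0.06, limma adjusted p = 0.457). Tnfrsf11a, which encodes the RANKL receptor RANK, gave a difference of −0.12 (SE 0.12).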

How the data were processed

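Biotinylated cRNA from total RNA was prepared for Affymetrix arrays, as the labels' protocols say. The deposited table holds 1 linear intensity per probe set and array, which the authors made with MAS5, per the submitters' processing notes; no version is stated there. Probe sets were named through the platform annotation, and all 19 member probe sets matched RefSeq (GRCm38.p6) by Entrez ID with 0 symbols changed.

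Intensities were taken as log2(value + 16), so folds of dim genes are understated. Probe sets with a mean at or above the 40th percentile (101 units) were tested with limma 3.58.1 in R 4.3.3 (two-sided, eBayes trend) and p-values adjusted by Benjamini-Hochberg over all 27022; the same steps were tested on simulated data. Exact permutation tests ran over all 924 assignments of arrays. Correlations used 100000 resamples, or all 5040 orders of 7 arrays. A gene whose arrays fell into 2 sets of at least 3, separated by a gap of over 33.3% of their log2 range, got no pooled test, a rule added after seeing the data. Named genes are all members, the 3 genes most like each, and from each pathway list the gene with the smallest p; other list genes given were picked after their values were seen. Members and lists were chosen with earlier results of these data known. The alternatives are given below. Figures used matplotlib 3.10.9.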

Additional observations from a re-analysis of the deposited data

Results flagged for a closer look

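In 38 groups of 6 arrays, 1 for each member probe set and genotype, 2 held an array far from the rest of its group, and chance gives about 1 in 20. Both were p190B replicate 6. Cited1 (1449031_at) read 7929 units there against 14007 to 18438 on the other p190B arrays. Greb1 (1439568_at) read 415 units there, against 62.9 to 101 on the other p190B arrays, and control replicates 4 and 5 read 275 and 246.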

How the results depend on the processing

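The count of member probe sets called was 0 under every alternative run, with a smallest limma adjusted p of 0.331 over 355 values (Foxa1, with luminal markers as a covariate). Over all tested probe sets 10 were called, with 5 without a filter, 17 with a filter at the 60th percentile, 28 after quantile normalisation, 4 with equal medians, 3 without trend, 19 with array weights and 24 at an adjusted p of 0.10. The count was 23 with lymphocyte and 50 with luminal markers as a covariate, 0 with the Gapdh and 1 with the Actb ratio, and 5 when p190B replicates 1 and 3 were dropped, an alternative added after seeing the data, and it was 4 to 9 when 1 array was left out. With the replicate number as a block it was 0 (2287 at an unadjusted p under 0.05), and no member call changed. Of 6 same-numbered pairs, 1 had a correlation of deviations from genotype means over 0.1, that of number 4 at 0.41. The mean was −0.056 over same-numbered pairs. Pairs with different numbers ran from −0.51 to 0.49, with a mean of 0.012. The labels do not say what a number marks, and a correlation over all tested probe sets cannot settle it.

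Of the 355 member differences under alternatives, 47 changed sign. With the Gapdh ratio as a covariate these were Tnfsf11 (1.36), Stc2 (0.73 and 0.67), Pgr (0.53 and 0.56), Cited1 (−0.23) and Esr1 (−0.14), and with the Actb ratio Tnfsf11 (0.75), Stc2 (0.73 and 0.54), Pgr (0.43 and 0.41), Cited1 (−0.16) and Esr1 (−0.020 and −0.069). Without p190B replicates 1 and 3 they were Tnfsf11 (0.54), Stc2 (0.40 and 0.23), Pgr (0.16 and 0.12) and Cited1 (−0.055). Quantile normalisation turned Esr1 1421244_at to −0.010 and array weights Stc2 1449484_at to 0.031. Leaving out 1 array gave −0.39 to 0.18, −0.34 to 0.17 and −0.10 to 0.20 for the Stc2 probe sets 1419503_at, 1449484_at and 1445186_at. It gave −0.45 to 0.030 for Pgr 1439527_at, −0.64 to 0.14 for Tnfsf11, −0.040 to 0.17 for Esr1 1421244_at, −0.15 to 0.021 for Esr1 1435663_at and −0.046 to 0.15 for Wnt4 1441687_at. With no change of sign it gave 0.014 to 0.26 for Cited1, 0.15 to 0.35 for Esr1 1460591_at, 0.14 to 0.24 for Foxa1, 0.10 to 0.25 for Wnt4 1450782_at and −0.53 to −0.055 for Pgr 1421444_at. Both 3′ over 5′ ratios tended higher on p190B arrays, so differences with them as covariates are imprecise. The cause of the sign changes was not tested.

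Of 10 member pairs over 12 arrays, 1 passed when adjusted over these pairs alone, and 0 when Esr1 and Wnt4 were read by their second probe sets. Wnt4 and Tnfsf11 turned from r = −0.16 to 0.37 as deviations from the lymphocyte markers. Values near the bottom of the range, as for Greb1, Tnfsf11 and Pgr 1421444_at, are noisy.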
